A study of Mus musculus with 21 samples.

Results

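The peroxisome proliferator-activated receptors PPARα, PPARδ and PPARγ, their coactivator PGC-1α and 3 of their classical target genes in fat burning were examined for binding of the vitamin D receptor (VDR) and for open chromatin in mouse intestinal epithelium. The 7 genes were Ppara, Ppard, Pparg, Ppargc1a, Cpt1a, Angptl4 and Pdk4, out of 22238 protein-coding genes of the mm9 annotation, and they were chosen by name. Ppara lies at chr15:85565413-85633249, Ppard at chr17:28369699-28438414, Pparg at chr6:115311239-115440419 and Cpt1a at chr19:3323301-3385732, all on the plus strand of mm9. Ppargc1a (chr5:51845488-51958964), Angptl4 (chr17:33910695-33918520) and Pdk4 (chr6:5433351-5446309) lie on the minus strand. For each gene, every VDR and ATAC peak of the pooled lists that touched the gene body or the 60 kb on either side was taken, with the number of single samples that also called it. For VDR this gave 74 of 22882 colon peaks, 32 of 12702 SI crypt peaks and 59 of 18078 SI villus peaks. For ATAC it gave 80 of 39428, 113 of 74734 and 120 of 64782, respectively.

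VDR ChIP-seq measures where the receptor sits on DNA, and ATAC-seq measures where chromatin is open to a transposase. The VDR samples came from C57BL/6 mice that had received 10 ng/g 1,25(OH)2D3, the active hormone, 1 h earlier, with 4 samples each of colon epithelium, SI crypt and SI villus (duodenum). The labels give their age as 4 to 6 weeks, the published methods give an older age, and both sexes were represented. The ATAC samples came from C57BL/6 mice labelled 90 days old, with 3 samples of each compartment. The published methods describe no injection for the ATAC mice, although the labels of these samples carry the protocol of the injected mice. All mice ate a standard chow. No VDR sample without hormone was used here, so a peak is binding in treated mice and not a response to treatment. The mice differed between both assays. The colon epithelium was scraped off whole and the SI was split into crypts and villi, and cell types within a compartment cannot be told apart.

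PPARs are nuclear receptors for fatty acids. They bind DNA together with a retinoid X receptor, the same partner that VDR uses, at paired half-sites with 1 base between them, whereas VDR prefers 3 bases. In the intestine PPARα and PPARδ are known for driving genes of fatty acid uptake and oxidation, and PPARγ is best known from fat cells and is also abundant in colon epithelium. Cpt1a encodes the enzyme that admits long-chain fatty acids to mitochondria, Pdk4 a kinase that holds back glucose oxidation, and Angptl4 a secreted inhibitor of lipoprotein lipase.

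Single VDR samples held between 1138 and 13382 peaks from 3100376 to 14716273 fragments left after removal of duplicates, and single ATAC samples between 21271 and 57827 peaks from 14376006 to 38175468 tags. SI crypt sample 1 stood apart. It had the most VDR peaks and the fewest fragments left, and 19 of its peaks lay in the 7 windows against 4, 5 and 5 in the other SI crypt samples. It alone called 7 of the pooled SI crypt VDR peaks in these windows. Its share is given below for some results, and other single SI crypt calls are not given by sample. Chromatin at the start of marker genes followed the labels in part, with open chromatin at 0, 2 and 3 of 4 SI enterocyte genes in colon, SI crypt and SI villus, at 3, 1 and 2 of 4 colon genes and at 0 of 4 immune cell genes in each compartment. It was open at 2, 4 and 4 of 4 crypt genes, so SI villus was open at the crypt genes too. It was open at 1 of 4 stromal and endothelial genes (Col1a1) and at 1 of 4 adipocyte genes (Cidec) in each compartment, and Adipoq, Plin1 and Lep had no ATAC peak there.

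To show the VDR element, 8 VDR-binding sites outside exons at Ppard, Pparg, Ppara, Cpt1a and Pdk4 are given as the 120 bp around the summit on the plus strand of mm9. They were picked, after their values were seen, among those with a match to that element in these letters, and the strongest 2, both at Ppard, differ in how closely they match it. Capitals mark the best match to the VDR element DR3, which is 2 half-sites in the same direction with 3 bases between them. A half-site was AGGTCA, with the variants AGTTCA as well as GGGTCA and also GGTTCA accepted. A match on the minus strand reads as its reverse complement. Sites are named by their distance from the start of the member gene.
Ppard +48.4 kb, chr17:28418024-28418143: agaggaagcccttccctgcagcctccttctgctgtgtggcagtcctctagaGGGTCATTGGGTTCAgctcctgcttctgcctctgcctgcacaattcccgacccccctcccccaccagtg
Ppard -2.2 kb, chr17:28367389-28367508: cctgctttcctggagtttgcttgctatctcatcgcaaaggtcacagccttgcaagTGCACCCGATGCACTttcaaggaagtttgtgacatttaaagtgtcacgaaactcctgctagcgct
Cpt1a -27.6 kb, chr19:3295677-3295796: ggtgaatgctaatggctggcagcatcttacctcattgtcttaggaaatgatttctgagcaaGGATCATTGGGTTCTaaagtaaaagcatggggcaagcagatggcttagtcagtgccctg
Cpt1a +22.3 kb, chr19:3345566-3345685: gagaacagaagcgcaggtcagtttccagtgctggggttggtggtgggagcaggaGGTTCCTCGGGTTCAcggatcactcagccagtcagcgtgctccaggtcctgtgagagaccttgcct
Pparg +6.2 kb, chr6:115317364-115317483: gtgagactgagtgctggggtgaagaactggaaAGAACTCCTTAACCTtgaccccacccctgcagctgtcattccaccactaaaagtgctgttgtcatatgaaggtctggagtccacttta
Ppara +97.8 kb, chr15:85663136-85663255: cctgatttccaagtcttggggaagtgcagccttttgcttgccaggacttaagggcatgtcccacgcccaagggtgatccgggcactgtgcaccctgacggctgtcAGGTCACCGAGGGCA
Pparg -27.7 kb, chr6:115283448-115283567: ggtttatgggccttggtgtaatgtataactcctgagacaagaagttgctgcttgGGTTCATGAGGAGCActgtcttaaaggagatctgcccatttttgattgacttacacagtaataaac
Pdk4 -39.6 kb, chr6:5485848-5485967: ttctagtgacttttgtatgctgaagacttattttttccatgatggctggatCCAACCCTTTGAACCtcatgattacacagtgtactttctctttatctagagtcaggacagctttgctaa

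Of these 8 sites, Ppard +48.4 kb held a full DR3 match, 2 bp from its summit, Cpt1a +22.3 kb and Ppara +97.8 kb held one with 1 mismatch, and the others one with 2 mismatches over the 12 half-site bases. Ppard +98.5 kb, Ppard +55.6 kb and Cpt1a -3.0 kb had a higher −log10 q (36.2, 34.4 and 26.99 at most) than Pdk4 -39.6 kb and are not shown, since no such match lay wholly within the 120 bp around their summits. The site at Ppard +48.4 kb was the only VDR peak of the 7 windows with a full DR3 within 200 bp around the summit, in each compartment (1 of 74, 1 of 32 and 1 of 59). Over all VDR peaks the share was 2.05%, 2.32% and 1.69%. With up to 2 mismatches allowed, a DR3 was found at 33.8%, 50.0% and 35.6% of the members' peaks and at 35.2%, 29.8% and 28.9% of all peaks in colon, SI crypt and SI villus. No member peak held a full match to DR1, the PPAR element with 1 base between the same half-sites, against 0.485%, 0.362% and 0.404% of all peaks. The AP-1 element TGANTCA stood at 9.46%, 6.25% and 3.39% of the members' peaks and at 7.38%, 5.42% and 6.72% of all peaks, and the GATA element AGATAA at 13.5%, 12.5% and 8.48% against 7.50%, 6.94% and 6.85%. All searches covered both strands. DR3, DR1 and GATA letters can overlap. At Pparg +6.2 kb a DR1 with 1 mismatch overlapped the marked DR3, which had 2. At Cpt1a +22.3 kb a DR1 with 1 mismatch overlapped the marked DR3, which also had 1.

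**Figure D1:**
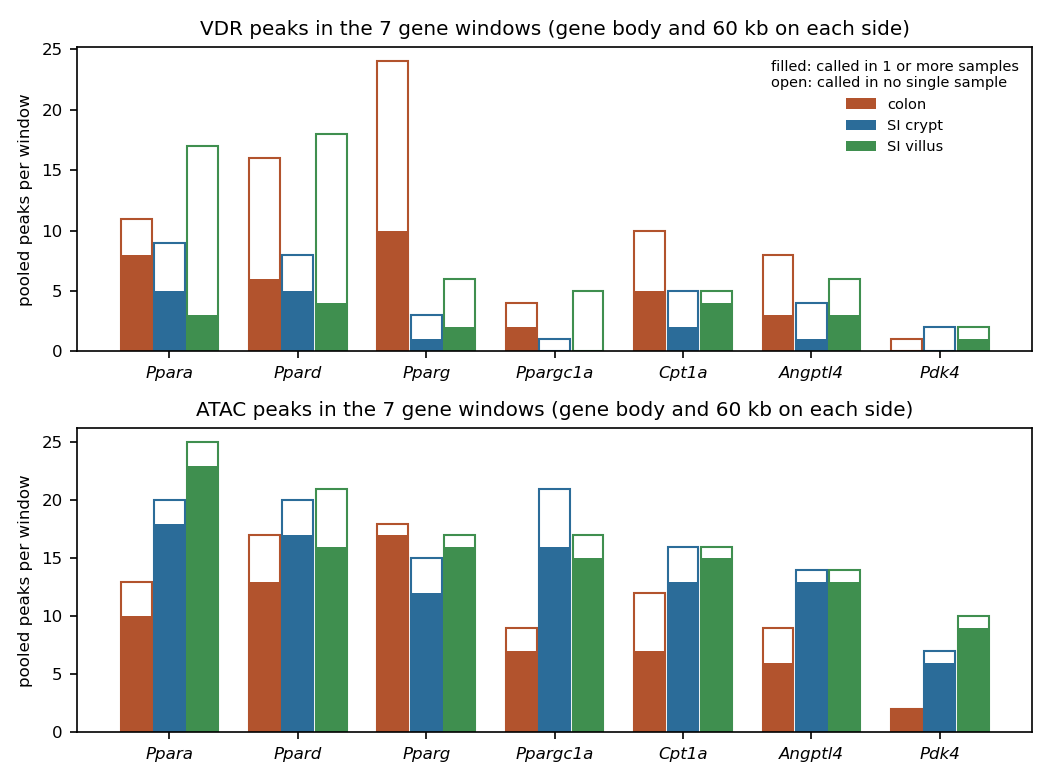
Pooled VDR peaks (top) and ATAC peaks (bottom) per gene window in colon, SI crypt and SI villus. Bars start at 0, and the filled part counts peaks that at least 1 single sample also called. Pparg had 24 VDR peaks in colon against 3 and 6 in the SI, and most SI villus VDR peaks at Ppara and Ppard were called by no single sample.

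Every member had at least 1 VDR peak in its window in every compartment, where 71.7%, 63.3% and 67.2% of all genes had one in colon, SI crypt and SI villus. The windows differ in length (127.8 kb at Angptl4 to 249.2 kb at Pparg). The median gene had 2, 1 and 1 VDR peaks. Ppard had 16, 8 and 18, Ppara 11, 9 and 17, and Pparg 24, 3 and 6. Cpt1a had 10, 5 and 5, Angptl4 8, 4 and 6, Ppargc1a 4, 1 and 5, and Pdk4 1, 2 and 2. Only 0.0360% of genes had as many VDR peaks in colon as Pparg, and 0.899% had as many per 100 kb. The plot of peaks per window shows these counts with their support in single samples.

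Many of these peaks were weak. Of the members' pooled VDR peaks, 54.1%, 56.3% and 71.2% (colon, SI crypt, SI villus) were called in none of the 4 single samples, against 50.8%, 35.4% and 49.6% of all pooled VDR peaks. Peaks called in at least 2 samples numbered 17, 5 and 6 in the same order, or 22.97%, 15.62% and 10.17% of the members' peaks against 22.81%, 16.89% and 24.36% of all. Without SI crypt sample 1 the count of SI crypt peaks called in at least 1 sample went from 14 to 7, while the 5 called in at least 2 stayed at 5. Merged over the compartments, the peaks formed 111 sites, of which 16 were called in all 3 pooled lists, 43 in colon alone and 26 in SI villus alone. That is 14.4%, 38.7% and 23.4%, and over all 34864 VDR sites it was 16.4%, 36.5% and 19.9%. The start of another gene was nearer than that of the member at 51 of the 111 sites.

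Ppard encodes PPARδ, a receptor found in most tissues, and it carried the strongest VDR binding of the 7 genes. The leading site lay in an intron, 48.4 kb inside the gene, with −log10 q (the significance of the peak over local background) of 229.9 for colon, 449.1 for SI crypt and 593 for SI villus. Its fold enrichment, the height of the summit over the local background of the same sample, was 8.71, 6.60 and 7.46 in colon samples 2 to 4, and colon sample 1 had no peak. It was 12.5, 24.6, 6.42 and 8.36 in the SI crypt samples and 21.6, 26.6, 10.8 and 3.99 in the SI villus samples. The compartments overlapped, since the lowest SI crypt and SI villus samples lay below all 3 colon values. No pooled ATAC peak overlapped this site in any compartment.

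The other large site, Ppard -2.2 kb, lay upstream of the gene, with −log10 q of 86.8, 204.2 and 337. Fold enrichment was 8.97, 5.07 and 7.81 in colon samples 2 to 4, again with no peak in colon sample 1. It was 13.4, 18.6, 11.6 and 14.3 in the SI crypt samples and 23.2, 21.6, 11.4 and 9.15 in those of SI villus. Every SI value was above every colon value. The site met pooled ATAC peaks of low enrichment in SI crypt (3.00, called in 1 of 3 samples) and SI villus (3.24, called in 1 of 3), and none in colon.

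**Figure D2:**
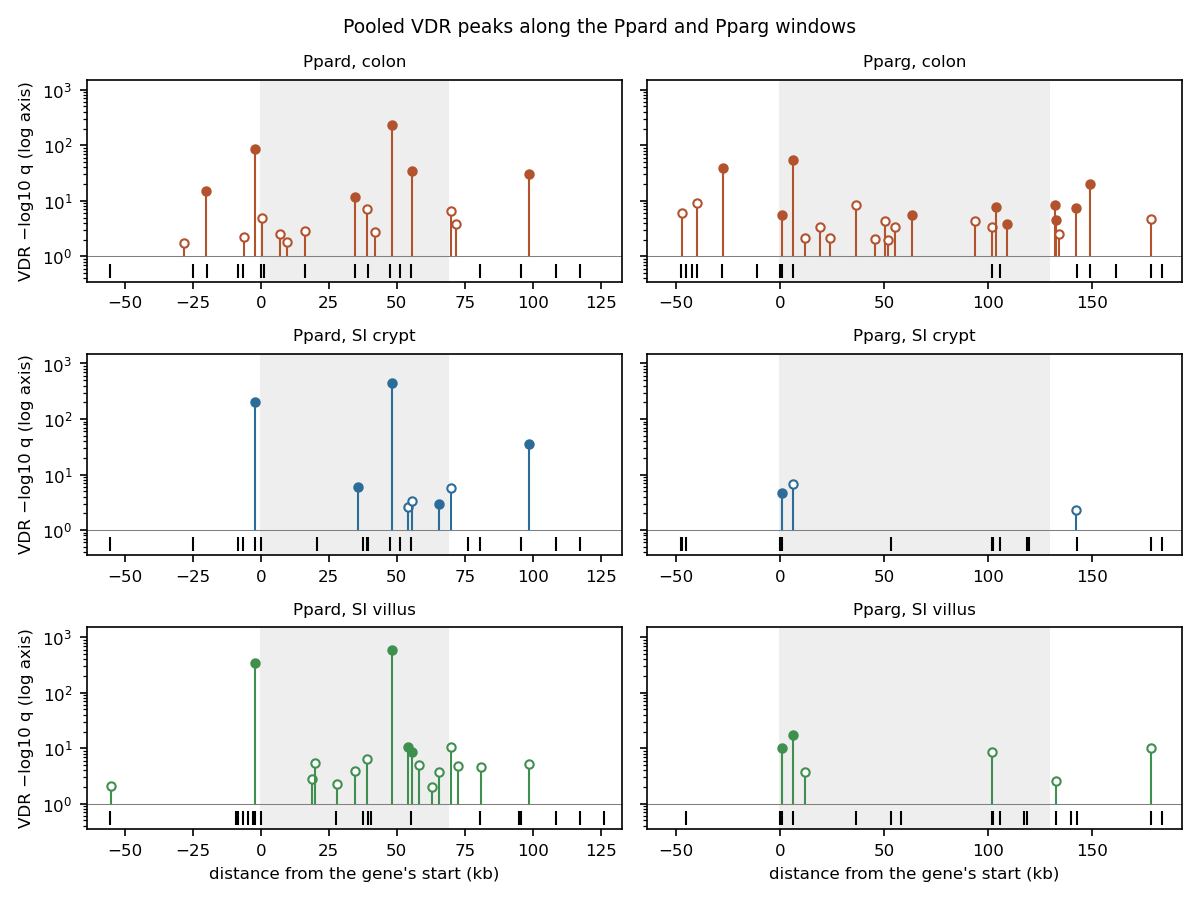
Pooled VDR peaks along the Ppard (left) and Pparg (right) windows, by distance from the gene's start in kb and −log10 q on a log axis, for colon, SI crypt and SI villus. Filled circles were called in at least 1 single sample, open circles in none, black ticks mark pooled ATAC peaks and the grey band is the gene body. The same 2 Ppard sites stand out in every compartment, with −log10 q from 86.8 to 593, and most Pparg peaks are in colon.

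No member site had a VDR peak in all 12 samples. Among the 199 sites of the genome that did, limma called 7 between colon and SI crypt (3.52%), 20 between colon and SI villus (10.1%) and 0 between SI crypt and SI villus (0%, with 8 at an unadjusted p under 0.05). Member sites were therefore tested in the fit of all 605 sites with a peak in at least 3 samples of each compartment, on log2 fold enrichment centred on each sample's median. Missing samples stayed out of that fit. There, 17 sites differed between colon and SI crypt (2.81%), 38 between colon and SI villus (6.28%) and 0 between SI crypt and SI villus (0%, with 39 at an unadjusted p under 0.05). Colon was higher at 5 of the 17 and 17 of the 38. Without the centring, where the median site shifted by -0.16 and -0.38 on the log2 scale, 0 and 4 sites were called, with colon higher at none of them. The 4 member sites in the fit were Ppard -2.2 kb, Ppard +48.4 kb, Cpt1a -27.6 kb and Ppara +97.8 kb.

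Ppard -2.2 kb passed in both colon comparisons. VDR enrichment was 1.94-fold higher in SI crypt than in colon (log2 difference -0.96, SE 0.23, limma adjusted p = 0.0375) and 1.77-fold higher in SI villus (log2 difference -0.82, SE 0.23, limma adjusted p = 0.0415). SI crypt and SI villus differed by a log2 of 0.14 (SE 0.21, limma adjusted p = 0.915). Both calls were lost without the centring (limma adjusted p = 0.479 and 0.154, log2 differences -1.01 and -1.09), with the replicate number as a block (0.0711 and 0.0766) and in 6 of 8 fits that each left out 1 sample, with adjusted p up to 0.188 and 0.192. The samples whose removal ended a call were colon samples 2, 3 and 4 for both, SI crypt samples 2, 3 and 4 for the first and SI villus samples 1, 2 and 3 for the second. The first call held without SI crypt sample 1. The site is in none of the deposited sets. These hold 531 VDR sites higher in SI crypt than in colon and 811 higher in SI villus than in colon. Of the 111 member sites, 0 are in either. Both sets are a small part of all 34864 VDR sites, so a count of 0 says little about the members.

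At Ppard +48.4 kb the log2 difference was -0.54 (SE 0.39, limma adjusted p = 0.517) for colon against SI crypt and -0.46 (SE 0.39, limma adjusted p = 0.537) for colon against SI villus. The spread among SI samples, from 3.99 to 26.6, was wider than at the upstream site. The order of the pooled −log10 q, lowest in colon and highest in SI villus, was not matched by a difference beyond the spread of the samples in this test.

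Further Ppard sites were weaker. Ppard +54.2 kb reached −log10 q of 10.5 in SI villus, called in 1 sample. Ppard +55.6 kb was called in 3 of 4 colon samples (3.39, 2.85 and 3.77) and 1 SI villus sample (3.87), with −log10 q of 34.4, 3.34 and 8.48 in colon, SI crypt and SI villus. Ppard +98.5 kb, which lies 2.8 kb from the start of the ribosomal protein gene Rpl10a, was called in 3 colon samples (4.07, 4.56 and 3.65) and 3 SI crypt samples (4.42, 3.72 and 4.10) and in no SI villus sample, with −log10 q of 30.5, 36.2 and 5.10. It was the 1 member site in the deposited set of VDR sites higher in SI crypt than in SI villus, a set that takes up 0.229% of all VDR sites.

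Pparg encodes PPARγ. It had the most VDR peaks of the 7 genes in colon, and 17 of its 24 sites were in the colon list alone. The site 27.7 kb upstream was called in 4 of 4 colon samples, with fold enrichment of 5.89, 10.2, 7.11 and 6.00 (mean 7.30 ± 2.00, SD, n = 4) and −log10 q of 38.3, and in no SI list. A colon ATAC peak overlapped it (fold enrichment 6.60, called in 2 of 3 samples), and the SI ATAC lists had none there. The intronic site at +6.2 kb was also called in 4 of 4 colon samples, at 3.39, 6.54, 3.47 and 6.18, and in 1 SI villus sample at 5.36, with −log10 q of 55.1, 6.72 and 17.7 in the 3 pooled lists. Neither site could be tested between compartments, since the lists hold no value for a sample without a peak. Neither is in the deposited sets of VDR sites higher in colon, which hold 571 sites against SI crypt and 930 against SI villus. The absence of a call is not an absence of binding at this depth.

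Most of the other Pparg sites were low. The median fold enrichment of its 24 colon peaks was 2.15, below the 3.36 of all colon VDR peaks, and 14 of the 24 were called in no single sample. Pparg +149.1 kb was higher (pooled fold enrichment 7.09 in colon) and was called in 2 colon samples, at 7.22 and 8.90. Pparg +0.9 kb, in an intron, was called in 1 sample of each compartment, with −log10 q of 5.66, 4.72 and 10.3 for colon, SI crypt and SI villus. Pparg +142.1 kb and Pparg +178.1 kb stayed at or below a −log10 q of 7.32 and 10.2. At the gene's own start, ATAC was called in 3 of 3 samples of each compartment, with pooled fold enrichment of 7.12, 6.61 and 7.13 in colon, SI crypt and SI villus.

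Ppara encodes PPARα, the main fatty acid sensor of the fasted liver. Its strongest VDR site, Ppara +97.8 kb, lay in an intron of another gene, 0.46 kb inside Ttc38. It was called in 3 of 4 samples of each compartment, at 10.6, 5.97 and 5.88 in the colon samples, 5.57, 5.44 and 5.63 in those of SI crypt and 7.15, 9.43 and 6.63 in those of SI villus. It overlapped an ATAC peak in every compartment. The log2 difference was 0.46 (SE 0.30, limma adjusted p = 0.467) between colon and SI crypt and 0.33 (SE 0.30, limma adjusted p = 0.556) between colon and SI villus. Before centring, every colon value lay above every SI crypt value, while colon and SI villus overlapped.

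Of the Ppara sites nearest to the gene itself, Ppara -26.5 kb was called in 3 colon samples (3.29, 4.04 and 3.63) and 2 SI crypt samples (5.07 and 3.88), one of them sample 1. The peak at the gene's own start, Ppara +0.2 kb, reached −log10 q of 9.62, 3.20 and 10.3, with a peak in 1 colon sample and in none of the SI. Of the 17 SI villus peaks in the Ppara window, 14 were called in no single sample. Ppara +87.1 kb, 0.315 kb from the start of Pkdrej, was called in 1 colon and 1 SI villus sample (−log10 q of 16.04 and 10.1), and Ppara +124.4 kb, 0.338 kb from that of Gtse1, in 1 colon and 1 SI crypt sample (5.25 and 6.28).

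Ppargc1a encodes PGC-1α, which switches on mitochondrial genes. Its VDR peaks were among the weakest. The highest −log10 q was 10.2, at Ppargc1a +24.9 kb in colon (fold enrichment 4.29, called in 1 of 4 samples). Ppargc1a +161.0 kb followed with 6.48 (1 of 4 colon samples), and all 5 SI villus peaks and the 1 SI crypt peak were called in no single sample. There was neither a VDR peak within 10 kb nor an ATAC peak within 1 kb of its annotated start. ATAC peaks elsewhere in the window numbered 9, 21 and 17 in colon, SI crypt and SI villus. One of them, Ppargc1a +13.8 kb, had pooled fold enrichment of 5.96, 7.56 and 6.35 in that order. It was called in 2, 3 and 3 of 3 samples. A weak SI villus VDR peak at Ppargc1a +13.9 kb, in an annotated exon, overlapped it (−log10 q of 4.04, called in no sample). The lack of peaks at the annotated start therefore does not cover starts further inside the gene. Ppargc1a -24.0 kb reached a pooled ATAC fold enrichment of 11.7 in SI villus (3 of 3 samples) and 3.72 in colon (1 of 3).

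Cpt1a had VDR sites of 3 kinds. The site 27.6 kb upstream, 12.7 kb from the start of Ighmbp2, was called in all compartments, at 5.88, 6.75, 6.52 and 8.26 in the colon samples, 6.50, 7.39 and 4.75 in those of SI crypt and 9.77, 8.73, 6.50 and 10.8 in those of SI villus. SI crypt sample 3 had no peak. The log2 difference was 0.43 (SE 0.25, limma adjusted p = 0.404) between colon and SI crypt, 0.02 (SE 0.23, limma adjusted p = 0.978) between colon and SI villus and -0.41 (SE 0.25, limma adjusted p = 0.757) between SI crypt and SI villus.

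A second group was found in colon. Cpt1a -3.0 kb was called in 2 of 4 colon samples (4.79 and 5.2, pooled −log10 q of 27.0), and Cpt1a +2.0 kb in 2 (3.89 and 3.33, pooled −log10 q of 14.2). Neither was called in any SI sample. The pooled SI crypt list still held Cpt1a +2.0 kb, at a −log10 q of 2.63 and a fold enrichment of 2.38. ATAC peaks overlapped Cpt1a +2.0 kb in both colon and SI crypt. At Cpt1a -3.0 kb the ATAC peak was in the SI crypt list alone (fold enrichment 3.84, called in 2 of 3 samples). Both Cpt1a sites belong to the deposited set of VDR sites higher in colon than in SI villus, as does Angptl4 +36.7 kb. That makes 3 member sites in a set that takes up 2.66% of all VDR sites. The third kind was seen in the SI. Cpt1a +22.3 kb was called in SI villus samples 1 and 2, at 13.9 and 12.6, with −log10 q of 58.4 in SI villus and 11.9 in SI crypt and no peak in colon. An SI villus ATAC peak overlapped it (fold enrichment 4.42, called in 2 of 3 samples). The same ATAC site was also in the colon list (fold enrichment 3.21, called in no single sample) and not in that of SI crypt. Cpt1a +65.7 kb, in an exon of the neighbouring gene Mtl5, was called in 2 colon samples and 1 SI crypt sample, with −log10 q of 9.31, 21.4 and 7.06.

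**Figure D3:**
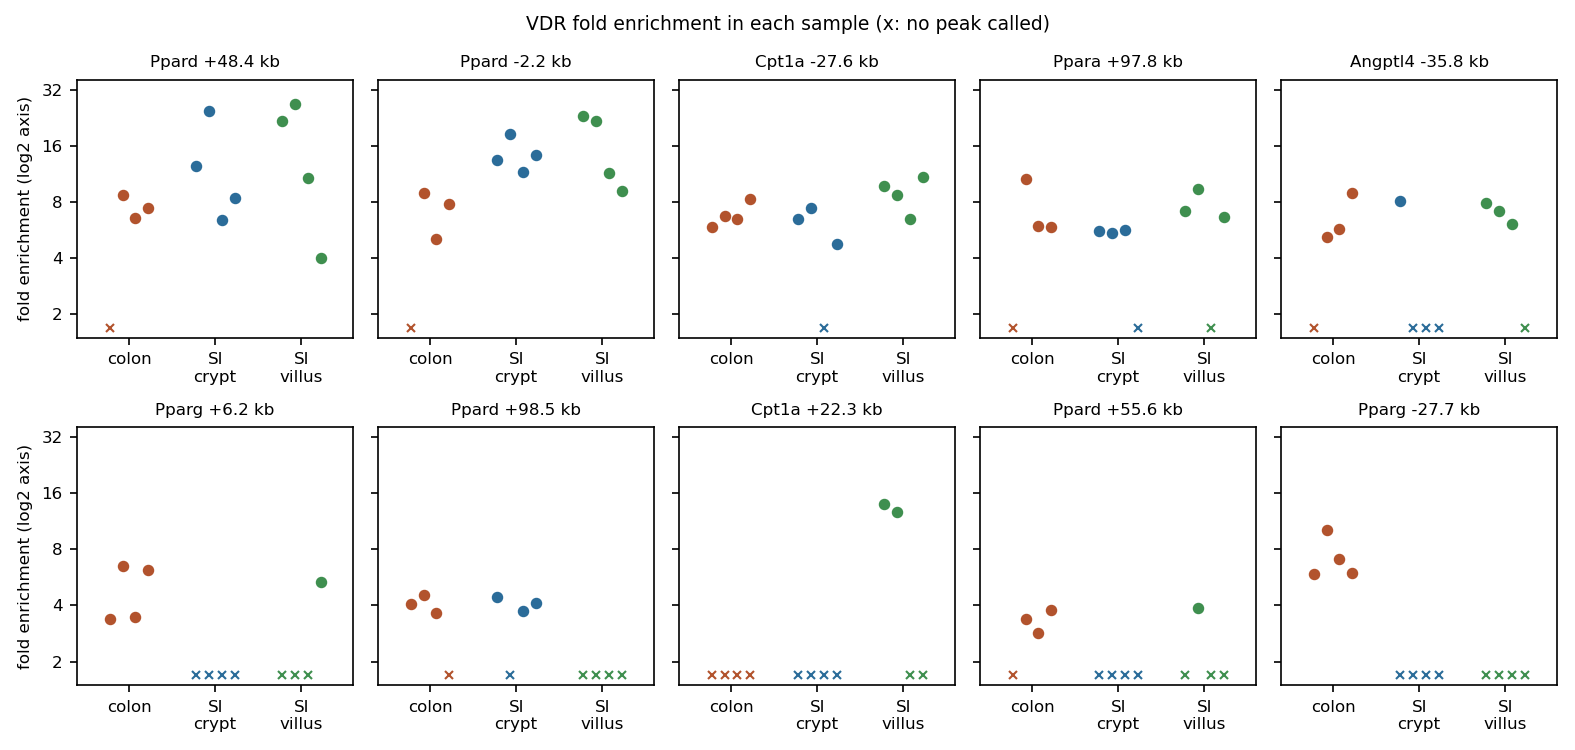
VDR fold enrichment over local background in each of the 4 samples per compartment at the 10 member sites of highest −log10 q summed over the 3 pooled lists, on a log2 axis. Each circle is 1 sample, and a cross at the bottom marks a sample with no called peak. At Ppard -2.2 kb all 8 SI values lie above the 3 colon values, while Pparg -27.7 kb was called in the 4 colon samples alone.

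Angptl4 was bound mainly outside the gene. Its strongest VDR site, Angptl4 -35.8 kb, lies in an exon of Kank3. It was called in 3 colon samples (5.18, 5.70 and 8.95), in SI crypt sample 1 alone (8.12) and in 3 SI villus samples (7.86, 7.15 and 6.12), and ATAC peaks overlapped it in each compartment. Without SI crypt sample 1 no SI crypt sample called it. Peaks within 10 kb of the start of Angptl4 reached −log10 q of at most 3.32 (colon), 3.00 (SI crypt) and 4.34 (SI villus). Angptl4 +35.5 kb and Angptl4 +21.4 kb, both inside Rab11b, reached −log10 q of 13.02 and 9.998 in colon and 14.0 and 9.39 in SI villus. Angptl4 +36.7 kb was called in 2 colon samples (3.78 and 3.45) and was the 1 member site in the deposited set of sites higher in colon than in SI crypt, a set that takes up 1.62% of all VDR sites.

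Pdk4 had the fewest VDR sites, 3 in all. Pdk4 -39.6 kb had −log10 q of 26 in SI villus (fold enrichment 8.82, called in 1 of 4 samples) and 10.4 in SI crypt (5.93, called in none) and was not in the colon list. The ATAC peak that overlapped it showed the same compartments, at a fold enrichment of 9.97 in SI villus (3 of 3 samples) and 4.26 in SI crypt (0 of 3). Pdk4 -14.8 kb (7.12, SI crypt) and the peak at the gene's start, Pdk4 +0.2 kb (2.77 in colon and 4.90 in SI villus), were called in no single sample.

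For open chromatin, every member had an ATAC peak in its window in every compartment, where 83.5%, 90.2% and 87.2% of all genes had one in colon, SI crypt and SI villus. Of the members' ATAC peaks, 22.5%, 15.9% and 10.8% were called in no single sample, against 17.03%, 18.7% and 15.65% of all ATAC peaks. A pooled ATAC peak overlapped 41.9% of the members' VDR peaks in colon (95% Wilson interval 31.3 to 53.3). The share was 43.8% for SI crypt (28.2 to 60.7) and 50.8% for SI villus (38.4 to 63.2). Over all VDR peaks the shares were 41.9%, 50.4% and 56.3%, each inside the interval. The intervals cover counting error only. At Ppard the share was 6 of 16, 2 of 8 and 6 of 18, and at Cpt1a it was 6 of 10, 3 of 5 and 5 of 5.

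ATAC fold enrichment was compared at the 10801 sites with a peak in all 9 samples, 26 of them in the member windows. After centring, limma called 2393 sites between colon and SI crypt (22.2%), 2604 between colon and SI villus (24.1%) and 910 between SI crypt and SI villus (8.43%). Among the 26 member sites these counts were 4, 2 and 5. The median log2 difference of the member sites was -0.07, 0.06 and -0.03, against -0.03, -0.01 and 0.01 over all sites. Centring matters here. Without it the median of all sites shifted by 0.10, 0.24 and 0.12, and the share of calls higher in the first-named compartment went from 39.1% to 61.8%, from 37.3% to 82.4% and from 48.0% to 86.4%. The length to which tags were extended also differed between the pooled ATAC lists, and its part in these differences was not tested.

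Of these 11 calls, 7 lay in the Ppara and Ppard windows. Ppara +34.2 kb, an intronic site, had ATAC fold enrichment of 4.92, 7.58 and 6.60 in the colon samples, 8.07, 6.12 and 5.82 in those of SI crypt and 9.96, 10.1 and 9.29 in those of SI villus. The SI villus samples lay above all others, by a log2 of 0.68 over SI crypt (SE 0.17, limma adjusted p = 0.0165) and 0.88 over colon (SE 0.17, limma adjusted p = 0.00103). The start of Ppara, at +0.5 kb, was most open in SI crypt, at 14.9, 11.7 and 14.2, against 10.3, 11.3 and 10.3 in colon and 9.36, 9.07 and 7.77 in SI villus. SI crypt was higher than colon (log2 difference -0.48, SE 0.16, limma adjusted p = 0.0340) and than SI villus (0.52, SE 0.16, limma adjusted p = 0.0440). Ppara +76.7 kb, at the start of 2210021J22Rik, was higher in colon than in SI crypt (log2 difference 0.70, SE 0.23, limma adjusted p = 0.0313).

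The start of Ppard, at -0.1 kb, had 8.30, 10.2 and 8.31 in the colon samples, 8.74, 10.4 and 10.1 in those of SI crypt and 7.43, 5.34 and 4.62 in those of SI villus. It was higher in SI crypt than in SI villus (log2 difference 0.66, SE 0.17, limma adjusted p = 0.0193), and so was Ppard -8.5 kb (0.59, SE 0.17, limma adjusted p = 0.0314). The VDR difference between the same compartments at Ppard -2.2 kb was 0.14 on the log2 scale, in other mice.

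Among the target genes, Pdk4 -13.6 kb had 8.99, 13.1 and 12.6 in the colon samples, 12.5, 9.26 and 11.8 in those of SI crypt and 6.998, 5.75 and 6.23 in those of SI villus. The SI villus samples were the lowest, by a log2 of 0.61 below colon (SE 0.16, limma adjusted p = 0.0105) and 0.70 below SI crypt (SE 0.16, limma adjusted p = 0.0111). Of the sites in the Angptl4 window, Angptl4 -28.9 kb, at the start of Kank3, was higher in SI crypt than in colon (log2 difference -0.77, SE 0.16, limma adjusted p = 0.00171), and Angptl4 -43.0 kb, at the start of Rps28, was higher in colon (0.65, SE 0.16, limma adjusted p = 0.00514). Both starts belong to other genes. None of the Cpt1a, Pparg and Ppargc1a sites with a peak in all 9 samples passed in any comparison.

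**Figure D4:**
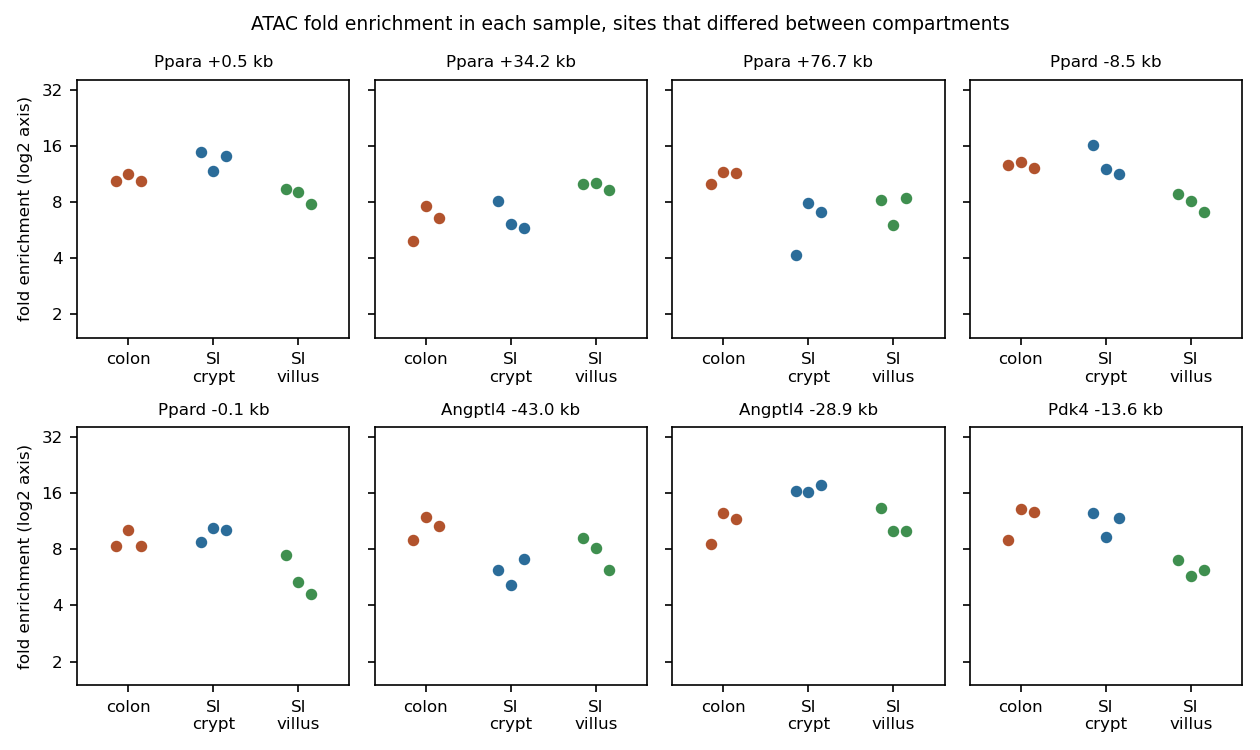
ATAC fold enrichment over local background in each of the 3 samples per compartment, on a log2 axis, at the 8 member sites that passed in at least 1 comparison. Each circle is 1 sample. SI villus is the lowest compartment at Ppard -0.1 kb and Pdk4 -13.6 kb and the highest at Ppara +34.2 kb.

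Without the centring, 7 of these 11 ATAC calls were lost, and the 4 that held were Angptl4 -43.0 kb and Ppara +76.7 kb in colon against SI crypt and Ppara +34.2 kb and Pdk4 -13.6 kb in colon against SI villus. In the fits that left out 1 sample each, Angptl4 -28.9 kb and Angptl4 -43.0 kb in colon against SI crypt and Ppara +34.2 kb in colon against SI villus were never lost.

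More member sites could be tested, and more passed, among the 16302 ATAC sites with a peak in at least 2 samples of each compartment, 38 of them in the member windows. There limma called 3739 sites between colon and SI crypt (22.9%), 4313 between colon and SI villus (26.5%) and 1429 between SI crypt and SI villus (8.77%), and 5, 9 and 10 of the 38 member sites. Without centring the counts over all sites fell to 1638 and 2198 in the comparisons with colon. The count between SI crypt and SI villus, 1429 with centring, fell by the largest share. It was then below the 103 calls left without centring in the fit of 10801 sites. Whether the calls of member sites in this larger set held without centring is not given here. Sites at Pparg, Ppargc1a and Cpt1a passed in this larger set.

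In the Pparg window, Pparg +101.9 kb was most open in SI villus, above colon (log2 difference -0.71, SE 0.17, limma adjusted p = 0.00731) and above SI crypt (-0.93, SE 0.19, limma adjusted p = 0.00892). Pparg +105.6 kb was most open in SI crypt, above colon (-0.60, SE 0.17, limma adjusted p = 0.0163) and above SI villus (0.72, SE 0.19, limma adjusted p = 0.0235). Ppargc1a +22.4 kb was higher in SI villus than in colon (-0.80, SE 0.20, limma adjusted p = 0.00758) and than in SI crypt (-0.74, SE 0.20, limma adjusted p = 0.0267). The pooled SI villus list had no peak at Ppargc1a +22.4 kb but had one at the neighbouring Ppargc1a +21.9 kb (fold enrichment 7.69). The highest SI villus sample value was 10.4 at both sites, so these 2 differences may carry the height of the neighbouring site. Colon was higher than SI villus at Ppargc1a +161.1 kb (0.47, SE 0.17, limma adjusted p = 0.0429) and at Cpt1a +2.3 kb (0.64, SE 0.20, limma adjusted p = 0.0241). At the start of Ppara, at Ppara +0.5 kb, the difference between colon and SI crypt no longer passed (-0.42, SE 0.16, limma adjusted p = 0.0653).

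The other genes of the pathway were read from 6 lists of 65 genes in all, as the VDR peak of highest −log10 q within 10 kb of each gene's start. Such a peak was found at 39, 35 and 43 of the 65 genes in colon, SI crypt and SI villus (60%, 53.8% and 66.2%), against 39.2%, 28.1% and 35.3% of all genes. Open chromatin at the start was also more frequent, at 76.9%, 86.2% and 81.5% of the 65 genes against 49.1%, 55.6% and 52.3% of all genes, and its part in the VDR counts was not tested. A peak called in at least 2 samples stood at 14, 11 and 17 of the 65 genes (21.54%, 16.92% and 26.15%), against 13%, 6.24% and 12.56% of all genes.

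The strongest binding of the whole pathway was at Crat, the carnitine acetyltransferase gene. Its peak, 0.4 kb inside the gene, had −log10 q of 573.6 (colon), 1078 (SI crypt) and 1814 (SI villus), with a peak in each of the 12 samples. Fold enrichment was 9.04, 23.1, 21.2 and 25.6 in the colon samples, 33.9, 37.3, 20.5 and 23.04 in those of SI crypt and 39.99, 45.4, 25.9 and 20.1 in those of SI villus, and the compartments overlapped. Among partners and coregulators of PPARs (10, 6 and 10 of 15 genes with a peak), Esrra, an orphan receptor that works with PGC-1α, was called in 1 colon sample and in 4 of 4 samples of SI crypt and SI villus, with −log10 q of 19.8, 62.5 and 217.8. Nrip1, a corepressor, had −log10 q of 23.99, 31.1 and 33.4.

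In fatty acid uptake, binding and activation (5, 6 and 7 of 11 genes), Acsl5, an acyl-CoA synthetase, had VDR fold enrichment of 4.59, 8.46, 5.61 and 10.9 in the colon samples, 5.99, 5.99 and 4.42 in 3 of SI crypt and 6.97, 7.95, 3.51 and 2.65 in those of SI villus. It was the 1 pathway site called for VDR, higher in colon than in SI villus (log2 difference 0.94, SE 0.22, limma adjusted p = 0.0243), out of 2 pathway sites in the fit of 605, although the uncentred values overlapped. This call was lost without the centring, where none of the 4 sites called was higher in colon. Fabp1, the liver-type fatty acid binding protein, had no colon peak and −log10 q of 11.03 in SI crypt and 28.9 in SI villus. In the carnitine shuttle (5, 4 and 3 of 7 genes), Cpt2 reached 14.4 in SI villus.

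In mitochondrial beta-oxidation (8, 9 and 11 of 13 genes), Eci1 had −log10 q of 58.9, 29.6 and 42.1 and Decr1 14.0, 24.1 and 43.2 in colon, SI crypt and SI villus. In peroxisomal and microsomal oxidation (6, 5 and 7 of 9 genes), Ech1 had 25.2, 15.9 and 19.2 in the same order. Its peaks lay 9.4 to 9.6 kb from the start, with pooled fold enrichment of 2.384, 2.495 and 2.803. In ketogenesis, fuel switching and uncoupling (5, 5 and 5 of 10 genes), Pdk2 had no colon peak and 26.8 and 34.8 in SI crypt and SI villus. Ucp2 had 23.9, 15.6 and 21.1. The Ucp2 peaks lay 7.3 to 8.0 kb from the start, with pooled fold enrichment of 2.715, 2.685 and 3.779. Of 46 ATAC sites near the starts of pathway genes in the fit of 10801, 9 were called between colon and SI crypt, 9 between colon and SI villus and 5 between SI crypt and SI villus. Over all 10801 sites the shares called were 22.2%, 24.1% and 8.43% in the same order.

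**Figure D5:**
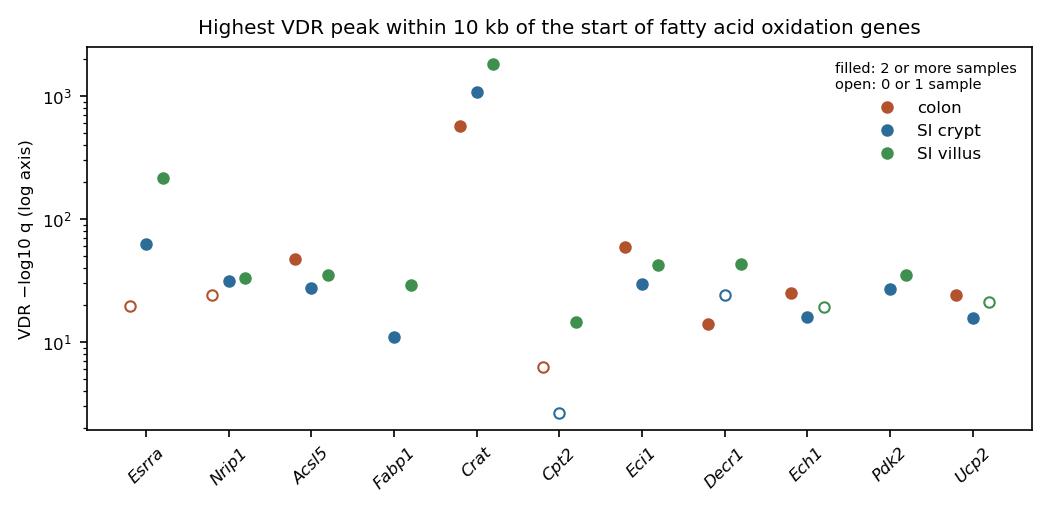
Highest VDR peak within 10 kb of the start of the 11 pathway genes named in the text, as −log10 q on a log axis, for colon, SI crypt and SI villus. Filled circles were called in at least 2 of 4 samples and open circles in 0 or 1. Crat stands above all others in each compartment, from 573.6 to 1814.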

How the data were processed

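VDR ChIP-seq (4 samples per compartment) and ATAC-seq (3 per compartment) were read from peak lists. Per the file headers and the submitters' processing notes, the authors aligned reads to mm9 (tools named there include cutadapt 1.9.1, Bowtie2 2.2.6, Picard 2.18.27 and SAMtools 0.1.19) and called peaks with MACS2 2.1.0.20150731 at q under 0.05 without a control sample, once per sample and once on the pooled samples of a compartment. The deposited fold enrichment is the pileup at a summit over the local background of the same list, and the deposited −log10 q is the peak's significance, which grows with depth. Read counts per peak are not analysed here, so no count test was run. A pooled list draws more reads than a single sample, so weak pooled peaks may be called in none. The deposited DiffBind sets of VDR sites were used for positions alone. They also hold the authors' fold changes and p-values, which were not used. All positions are mm9, and 6 peaks lay outside the chromosomes of the reference.

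Genes were the protein-coding names of the mm9 annotation, and windows were the gene body plus 60 kb on each side (1 bp overlap). Overlapping pooled peaks of an assay were merged into sites. A sample's value at a site was its highest peak fold enrichment there, taken as log2 and centred on the sample's median. Sites with values in every sample were fitted across all samples with limma 3.58.1 (R 4.3.3), with Benjamini-Hochberg adjustment over all fitted sites at 0.05. Since no member site had a VDR peak in every sample, VDR members were read from the fit of sites with at least 3 samples per compartment, and the planned search for sites of like pattern could not be made. That choice came after the data were seen. These fits leave out samples without a peak, which can understate a difference. Motifs were searched within 200 bp around summits. Scripts (Python 3.11.15, scipy 1.17.1, pysam 0.24.0) were tested on simulated data. No pair of samples had identical lists.

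VDR samples had 3100376 to 14716273 fragments after removal of duplicates and ATAC samples 14376006 to 38175468 tags. The labels do not tie replicate numbers to mice, and p-values measure the spread between these samples. The deviations of same-numbered SI crypt and SI villus VDR samples correlated at 0.60, 0.20, 0.63 and 0.73. Those of colon with the SI lay between -0.14 and 0.16, and those of ATAC pairs between -0.17 and 0.06. Differently numbered samples were not compared, so these values cannot show whether the numbers pair the samples. The blocked fits are given where they change a call.

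The 7 genes were given by name, and they and the lists were chosen with earlier results of these data known. Sites given in full were the 3 of highest −log10 q per gene and pooled VDR list, those called in all samples of a compartment and those past the limma threshold. Pathway genes named were the 2 of highest −log10 q per list and any called by limma for VDR, except 1 gene that is not reported here.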

Additional observations from a re-analysis of the deposited data

Results flagged for a closer look

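SI crypt sample 1 stood apart from the other SI crypt samples in its VDR peaks, by the gap between it and the nearest other sample as a share of the group's range. It had 19 peaks of its own in the 7 windows against 4, 5 and 5 (gap 0.93 of the range), and it called 37.5% of the pooled SI crypt VDR peaks of these windows (gap 0.875 of the range). Of 14 groups of 4 values tested, these 2 passed Dixon's 95% critical value, and chance flags about 1 in 20 groups. Both flags are the same sample in the same windows, so they do not count as 2 separate results. The sample called 7 of the SI crypt peaks alone, Angptl4 -35.8 kb among them. It did not decide Ppard -2.2 kb and Ppard +48.4 kb, which the other SI crypt samples also called. Ppard +35.7 kb and Ppard +65.6 kb were each called in 1 SI crypt sample, and which sample that was is not given here.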

How the results depend on the processing

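Among sites with a VDR peak in every sample, the calls between colon and SI crypt (7) became 0 without centring, 17 with the sites of at least 3 samples per compartment and 11 with −log10 q in place of fold enrichment. Those between colon and SI villus (20) became 2, 38 and 32. Leaving out 1 sample gave 0 to 8 and 1 to 27 calls, and 0 throughout between SI crypt and SI villus. The first count went to 0 without colon sample 3 or 4 or SI crypt sample 2, to 2 without SI crypt sample 3 and to 1 without SI crypt sample 4. The second went to 12 or less without colon sample 2, 3 or 4 or SI villus sample 1, 2 or 3. With the replicate block in the SI crypt and SI villus samples alone, 4 of 359 sites were called between them, none a member site (Ppard -2.2 kb adjusted p = 0.651 in limma). For ATAC, the calls became 992 (colon against SI crypt) and 103 (SI crypt against SI villus) without centring and 3739, 4313 and 1429 with sites of at least 2 samples per compartment, and leaving out 1 sample gave 1617 to 2026, 1621 to 2376 and 397 to 959. The count for colon against SI villus dropped by over 1.5 times without colon sample 1 or 2, and that for SI crypt against SI villus without SI crypt sample 2 (502) or SI villus sample 2 (397).

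The calls at Ppard -2.2 kb were also lost with −log10 q in place of fold enrichment (limma adjusted p = 0.123 and 0.0726). They held with another centring (limma adjusted p = 0.0242 and 0.0222), and the direction was the same in every alternative run. With the replicate number as a block, the ATAC call at Ppara +0.5 kb between SI crypt and SI villus was lost (limma adjusted p = 0.0649), and no other ATAC call of a member site was. The direction turned only in differences that were not called. Without centring these were Ppara +97.8 kb (-0.088) and Cpt1a -27.6 kb (-0.37) for VDR in colon against SI villus, Ppard -2.2 kb (-0.084) and Ppard +48.4 kb (-0.15) in SI crypt against SI villus, and for ATAC Pdk4 -13.6 kb in colon against SI crypt (0.037). With −log10 q it was Ppard -2.2 kb in SI crypt against SI villus (-0.0017). When 1 sample was left out, Cpt1a -27.6 kb in colon against SI villus lay between -0.11 and 0.23, Ppard +48.4 kb in SI crypt against SI villus between -0.36 and 0.32, Ppara +97.8 kb between -0.32 and 0.017, and for ATAC Ppara +0.5 kb in colon against SI villus between -0.041 and 0.14. The causes were not tested.

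The count of VDR peaks in the windows fell to 47 (colon) and 18 (SI crypt) with 10 kb on each side, to 39, 16 and 29 at a −log10 q of at least 5, and to 17, 5 and 6 for peaks in at least 2 samples. With 10 kb, ATAC peaks numbered 39, 59 and 59. Windows of 100 kb and peak midpoints kept each count within 1.5 times. The share of VDR peaks in open chromatin became 20.3%, 15.6% and 30.5% when at least 50% of the VDR peak had to be covered. Over all VDR peaks it became 26.7%, 24.5% and 38.7%. At a −log10 q of at least 5 the members' share was 53.8%, 50% and 62.1%, against 49.97%, 61.1% and 66.3% of all VDR peaks. Up to 2 mismatches gave 25, 16 and 21 DR3 and 18, 9 and 13 DR1 peaks, and a window of 400 bp gave 1 DR1 in colon and 1 in SI villus. VDR peaks called in at least 1 SI crypt sample ranged from 7 (without sample 1) to 14. The single-site VDR alternatives, the peaks called without each sample and the SI block were chosen after seeing the data.

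A sample without a peak is not a sample without binding, and the shallowest lists (1138 VDR peaks) miss weak sites. The pooled −log10 q grows with depth and does not rank compartments. Without hormone-free VDR samples the effect of 1,25(OH)2D3 cannot be read, and the ATAC mice were others.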

Other observations

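ATAC peaks in the Pdk4 window numbered 2, 7 and 10 in colon, SI crypt and SI villus, and 4 of the 10 sites (40%) were in the SI villus list alone, against 18.37% of all ATAC sites. Pdk4 +66.0 kb, one of them, had −log10 q of 57.5 and was called in 3 of 3 SI villus samples, while the start of the gene was open in all 3 compartments. At Angptl4 the start had −log10 q of 3.88, 5.36 and 13.5, with a peak in 0, 2 and 2 of 3 samples.

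In the Ppargc1a window, Ppargc1a +15.4 kb had no colon ATAC peak and −log10 q of 17.8 and 37.0 in SI crypt and SI villus, called in 3 of 3 samples of each. Of 25 ATAC sites there, 9 were shared by SI crypt and SI villus and were not in the colon list, as were 17744 of all 99309 ATAC sites. These sites were not tested between compartments, since samples without a peak have no value.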
